A study of Mus musculus with 6 samples.

Results

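The genes described here are Fos, Fosb, Fosl1, Fosl2, Jun, Junb, Jund, Egr1, Atf3 and Ier2, the subunits of the transcription factor AP-1 together with 3 other immediate early genes. They were chosen by symbol, and all 10 had a row among the 23420 genes counted. The measured RNA came from flow-sorted cells of Meta4, a mouse line of dysplastic epithelium kept as organoids. The labels name the sorted dysplastic stem cell subpopulations TP-DSCs and DP-DSCs, with 3 libraries of each, and give no treatment, time or age. Both groups come from this single organoid line. What is known of the study beyond the labels is that the line derives from mouse stomach. By the same knowledge, DP-DSCs carry the surface proteins CD133 and CD166, and TP-DSCs carry the CD44v6 form of CD44 in addition. The library names bear the number 3840 (replicate 1 of each group) or 4140 (replicates 2 and 3 of each group), whose meaning the labels leave unexplained. Beyond these library numbers, an equal replicate number does not link a TP-DSC library with a DP-DSC library.

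AP-1 is a pair of bZIP proteins, in which a Fos family member must join a Jun family member to bind DNA, while Jun proteins can also pair among themselves. Immediate early genes are transcribed within minutes of a growth factor, serum or stress signal, without new protein being made, and most of their RNAs are short-lived. Signals reach them largely through the MAP kinases ERK, JNK and p38 and through the factors SRF, ELK and CREB. In epithelium AP-1 is known for its part in proliferation, wound repair and invasion. The taking apart of tissue into single cells is itself a known inducer of these genes, so the question asked was whether they rise and fall together over the libraries. No measure of handling was used here.

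Library facts that touch these genes are given first. Reads assigned to genes ranged from 17015581 to 31068454 in TP-DSCs and from 27027919 to 32671039 in DP-DSCs. Genes with at least 1 read ranged from 10571 to 10982 in TP-DSCs and from 12504 to 14434 in DP-DSCs, and reads outside genes made up 16.2 to 20.3% in TP-DSCs and 14.1 to 15.4% in DP-DSCs. The defining epithelial genes Epcam, Cdh1, Krt8, Krt18 and Krt19 stood above 691 CPM in every library (CPM is the count scaled to 1000000 reads assigned to genes). Summed markers reached at most 0 CPM in TP-DSCs and 0.828 CPM in DP-DSCs for 7 leukocyte genes, and 0 and 1.15 CPM for 4 endothelial genes. For 7 fibroblast genes, of which Col1a2, Col3a1, Dcn, Pdgfrb and Lum were at 0 in all libraries, the sum ranged from 0 to 2.90 CPM in TP-DSCs and from 0.704 to 3.19 CPM in DP-DSCs. Summed Chga, Chgb, Dclk1 and Trpm5, markers of enteroendocrine and tuft cells, ranged from 0.0588 to 104 CPM in TP-DSCs and from 7.61 to 69.4 CPM in DP-DSCs. Dclk1 reached 90.8 CPM in TP-DSCs and 67.0 CPM in DP-DSCs, and Trpm5 13.6 and 2.55 CPM. Chga reached at most 0.0588 CPM in TP-DSCs and 1.07 CPM in DP-DSCs, and Chgb 0 and 1.04 CPM. TP-DSCs replicate 1 was the highest library for 7 of the 10 genes, so values without it are given beside the main results that rest on it.

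The abundance of the 10 genes was high enough for every one to be read in every library, the lowest count being 237 (Fosl1 in DP-DSCs replicate 1). In the bulk samples measured here, a smaller share of expressing cells and less RNA per cell cannot be told apart. Fos, the founding partner of Jun, stood at 1050.0, 536 and 362 CPM in TP-DSCs replicates 1, 2 and 3, and at 512, 279 and 111 CPM in DP-DSCs replicates 1, 2 and 3. The TP-DSC mean was the higher one, but DP-DSCs replicate 1 lay above TP-DSCs replicate 3, so the groups overlapped. Fosb, whose gene also encodes the shorter form ΔFosB that gene counts do not separate, stood at 259, 184 and 114 CPM in TP-DSCs and at 116, 144 and 23.1 CPM in DP-DSCs, in replicate order. Its groups overlapped too, and DP-DSCs replicate 3 held the lowest value of both genes. Over the 6 libraries the highest value was 9.47 times the lowest for Fos and 11.2 times for Fosb. Among the 9521 tested genes with reads in all libraries the median of this ratio was 2.26, and 4.38% of them had a larger ratio than Fos and 3.46% than Fosb.

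The remaining Fos family members did not share that pattern. Fosl1, which encodes the Fra-1 protein associated with invasive epithelium, was the least abundant member at 12.0, 26.8 and 27.4 CPM in TP-DSCs and 7.27, 32.6 and 13.1 CPM in DP-DSCs. It was low in both replicate 1 libraries, where Fos was high. Fosl2, which encodes Fra-2, stood at 143, 144 and 239 CPM in TP-DSCs and 164, 135 and 203 CPM in DP-DSCs. Its highest libraries were replicate 3 of each group, the libraries in which Fos was lowest within its group. The ratio of highest to lowest library was 4.48 for Fosl1 and 1.77 for Fosl2.

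The Jun family varied less from library to library. Jun, the strongest activator of the family, stood at 626, 443 and 307 CPM in TP-DSCs and 401, 368 and 323 CPM in DP-DSCs. Junb, which can restrain Jun, stood at 323, 204 and 170.3 CPM in TP-DSCs and 217, 165 and 170.0 CPM in DP-DSCs. In both genes TP-DSCs replicate 1 was the highest library and the groups overlapped. Jund, the family member that is expressed steadily in many resting cells, stood at 389, 289.9 and 247 CPM in TP-DSCs and 373, 408 and 296 CPM in DP-DSCs, with a ratio of highest to lowest of 1.65, against 2.04 for Jun and 1.96 for Junb. A larger ratio than these was found in 81.0, 59.4 and 62.9% of genes, in that order.

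The 3 genes outside the AP-1 families of Fos and Jun gave the single case of separated groups. Egr1, a zinc finger factor induced through ERK and SRF, stood at 262, 210.3 and 209 CPM in TP-DSCs and 157, 142 and 69.7 CPM in DP-DSCs, so that every TP-DSC library lay above every DP-DSC library. Atf3, a stress-induced bZIP factor that pairs with Jun proteins, stood at 175, 55.3 and 52.3 CPM in TP-DSCs and 67.7, 88.6 and 19.0 CPM in DP-DSCs, with TP-DSCs replicate 1 far above the other libraries. Ier2, a small nuclear protein of the early response, stood at 174, 153 and 55.3 CPM in TP-DSCs and 114, 99.9 and 109 CPM in DP-DSCs. The lowest and the highest Ier2 values were both TP-DSC libraries, while the DP-DSC libraries had an SD of 6.94 CPM. The ratio of highest to lowest library was 9.22 for Atf3, 3.75 for Egr1 and 3.15 for Ier2, exceeded by 4.57, 20.9 and 28.3% of genes, in that order.

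**Figure D1:**
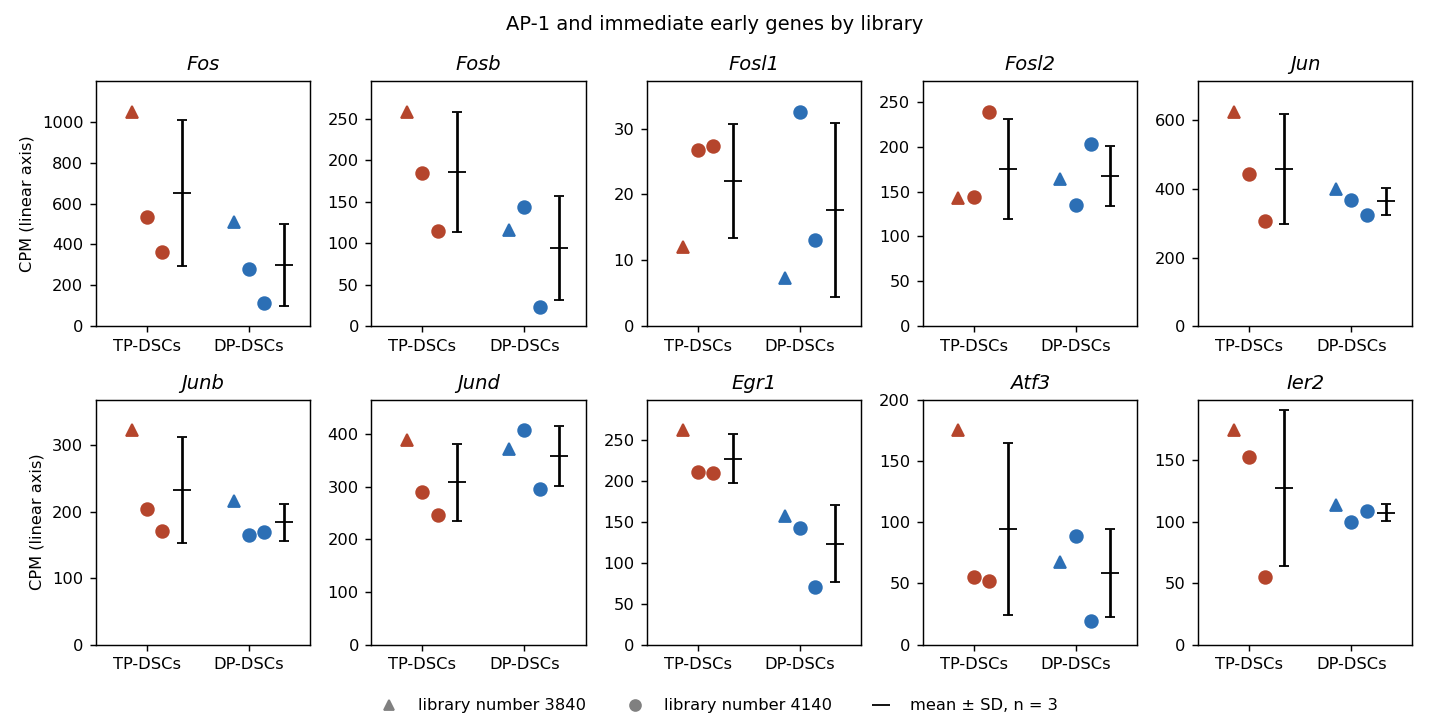
CPM (linear axis from 0) of each gene in each library, with TP-DSCs left and DP-DSCs right; triangles are libraries numbered 3840, circles those numbered 4140, and black bars the mean ± SD (n = 3). Egr1 is the gene without overlap, at 209 CPM or more in TP-DSCs and 157 CPM or less in DP-DSCs.

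The promoters of Fos, Fosb, Jun and Junb are shown because these genes gave the closest pairs within their families over the libraries. Each sequence holds 250 bases before to 50 bases after the RefSeq start of the gene (GRCm38.p6, the same assembly as mm10), read 5′ to 3′ on the gene's strand. Capitals mark matches to the letters searched, and overlapping matches run together. The windows are chr12:85473640-85473939 on the plus strand for Fos and, on the minus strand, chr7:19309996-19310295 for Fosb, chr4:95052173-95052472 for Jun and chr8:84978699-84978998 for Junb.
Fos: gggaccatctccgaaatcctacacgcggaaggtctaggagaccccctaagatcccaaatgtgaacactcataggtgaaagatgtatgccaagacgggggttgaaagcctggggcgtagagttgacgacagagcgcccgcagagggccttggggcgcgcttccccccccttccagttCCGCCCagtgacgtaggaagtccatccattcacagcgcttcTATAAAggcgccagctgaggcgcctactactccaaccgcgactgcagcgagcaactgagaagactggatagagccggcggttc
Fosb: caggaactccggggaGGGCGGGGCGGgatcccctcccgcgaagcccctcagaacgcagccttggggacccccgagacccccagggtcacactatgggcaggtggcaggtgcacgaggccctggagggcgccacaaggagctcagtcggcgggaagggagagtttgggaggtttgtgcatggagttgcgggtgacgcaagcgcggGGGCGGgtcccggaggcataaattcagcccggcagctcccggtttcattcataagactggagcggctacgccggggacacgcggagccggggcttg
Jun: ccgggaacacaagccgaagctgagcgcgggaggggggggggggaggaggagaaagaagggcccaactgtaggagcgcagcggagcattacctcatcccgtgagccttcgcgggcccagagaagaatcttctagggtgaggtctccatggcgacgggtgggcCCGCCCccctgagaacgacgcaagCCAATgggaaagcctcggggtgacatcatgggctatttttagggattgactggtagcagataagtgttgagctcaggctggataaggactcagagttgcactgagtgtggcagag
Junb: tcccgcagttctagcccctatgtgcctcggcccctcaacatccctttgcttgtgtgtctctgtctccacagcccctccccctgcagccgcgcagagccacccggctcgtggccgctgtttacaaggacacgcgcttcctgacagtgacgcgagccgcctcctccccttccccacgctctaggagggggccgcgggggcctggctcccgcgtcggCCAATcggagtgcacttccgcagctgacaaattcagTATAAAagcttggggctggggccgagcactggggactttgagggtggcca
A window was used for 7 of the 10 genes, with Fosl2, Jund and Atf3 in addition to those printed. None was used for Fosl1, Egr1 and Ier2, so the counts of letters below do not cover these genes. The RefSeq start lay 671 bases downstream of the first GENCODE start for Fosl2 and 34706 bases downstream for Atf3, both of which have several starts, while for Jund it lay upstream (an offset of -1210 bases). The letters TATAAA were found in Fos, beginning 33 bases before the start, and in Junb at the start itself, which RefSeq places 30 bases upstream of the GENCODE one. They occur on either strand in 13.6% of 32851 promoter windows of the same length. GGGCGG, the GC box, was found in 5 of the 7 (Fos, Fosb, Fosl2, Jun and Atf3) against 35.7% of all windows, and CCAAT in Jun, Junb and Atf3 against 37.4%. TGACGTCA (the full cyclic AMP response element), TGACTCA (the AP-1 site), the CArG box bound by SRF and GCGTGGGCG (an EGR site) were in 0 of the 7 windows. These letters occur in 1.79, 5.20, 1.63 and 0.612% of all windows, in that order. The well-known serum response element of Fos lies upstream of the stretch shown. Only full matches were counted, so near matches, such as tgacatca in the Jun window and tgacgta in the Fos window, were left out.

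In the mm10 annotation (GENCODE M21), Fos lies on chromosome 12 from 85473890 to 85477273, Fosb on chromosome 7 from 19302696 to 19310051, Fosl1 on chromosome 19 from 5447547 to 5455946 and Fosl2 on chromosome 5 from 32135801 to 32157842. Jun lies on chromosome 4 from 95049034 to 95052222. Junb, Jund and Ier2 lie on chromosome 8, from 84974484 to 84978718, from 70698949 to 70700616 and from 84661331 to 84662852. Egr1 lies on chromosome 18 from 34859823 to 34864984 and Atf3 on chromosome 1 from 191170296 to 191218039. Jun, Junb, Jund, Fosl1 and Atf3 each overlap another gene on the opposite strand (Junos, Prdx2, Gm11175, Ccdc85b and Gm24748). The strand setting of the counting is not given in the sources used here, so their reads may include or have lost reads at those overlaps.

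In the comparison of the groups, Fos, Fosb and Egr1 had the largest differences, and none of the 10 genes passed. Fos averaged 649 ± 358 CPM in TP-DSCs and 301 ± 201 CPM in DP-DSCs (SD, n = 3 each), and the log2 fold change was 1.12 with an SE of 0.63. Fosb averaged 186 ± 72.2 CPM in TP-DSCs and 94.1 ± 63.0 CPM in DP-DSCs, with a log2 fold change of 1.01 ± 0.63 (SE). Egr1 averaged 227 ± 30.1 CPM in TP-DSCs and 123 ± 46.8 CPM in DP-DSCs, with a log2 fold change of 0.88 ± 0.33. In edgeR's quasi-likelihood test the adjusted p over all genes was 0.999 for Fos and Fosb and 0.614 for Egr1, whose unadjusted p was 0.0293. An exact two-sided permutation test of the CPM gave p = 0.1 for Egr1, which is the smallest p that 3 against 3 libraries can give, p = 0.2 for Fos and p = 0.3 for Fosb.

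Of the 10 genes, 9 had a log2 fold change above 0, as did 48.2% of the 11925 genes tested, and the median was 0.34 against -0.02 over all genes tested. In edgeR 0 of the 10 had an adjusted p under 0.05, as did 0% of all genes; at an unadjusted p under 0.05 there was 1, Egr1, against 6.1% of all genes and 1.43% in the upward direction. DESeq2 called 0 of the 10 with 0.78% of all genes called (1.76% when every gene with a read was entered, again with 0 of the 10), and limma-voom 0 of the 10 with 0% of all genes called. The groups did not overlap, with TP-DSCs higher, for 1 of the 10 and for 3.87% of all genes tested, and with TP-DSCs lower for 0 of the 10 and 8.56% of all genes tested. For the remaining members the log2 fold changes were 0.74 ± 0.68 for Atf3, 0.34 ± 0.31 for Jun, 0.34 ± 0.32 for Junb, 0.32 ± 0.64 for Fosl1, 0.25 ± 0.42 for Ier2, 0.03 ± 0.27 for Fosl2 and -0.21 ± 0.26 for Jund.

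TP-DSCs replicate 1 decided much of this. Without it the median of the 10 log2 fold changes was 0.028, that of Fos 0.48, that of Fosb 0.59 and that of Egr1 0.68 (edgeR unadjusted p = 0.103), and those of Jun, Junb, Atf3 and Ier2 were -0.045, -0.066, -0.19 and -0.14. Without DP-DSCs replicate 3, the library at the other end, the log2 fold change was 0.70 for Fos, 0.52 for Fosb, 0.30 for Atf3 and 0.58 for Egr1. Within the library numbers, as differences of mean log2(CPM + 1), Fos was 1.04 higher in TP-DSCs in the single pair numbered 3840 and 1.32 higher among the libraries numbered 4140, 2 of each group. For Fosb these differences were 1.15 and 1.31, and for Egr1 0.73 and 1.07. Jun differed by 0.64 and 0.10, Junb by 0.57 and 0.16, Atf3 by 1.36 and 0.37, and Fosl1 by 0.65 and 0.37. Ier2 (0.61 and -0.18), Jund (0.06 and -0.38) and Fosl2 (-0.20 and 0.16) differed in sign between the numbers. The TP-DSC mean was thus the higher one under both numbers for 7 of the 10 genes by log2(CPM + 1), as it was for 19.5% of all genes tested. Atf3 is among the 7 on this scale, while edgeR on the libraries numbered 4140 alone gave it a log2 fold change of -0.029.

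**Figure D2:**
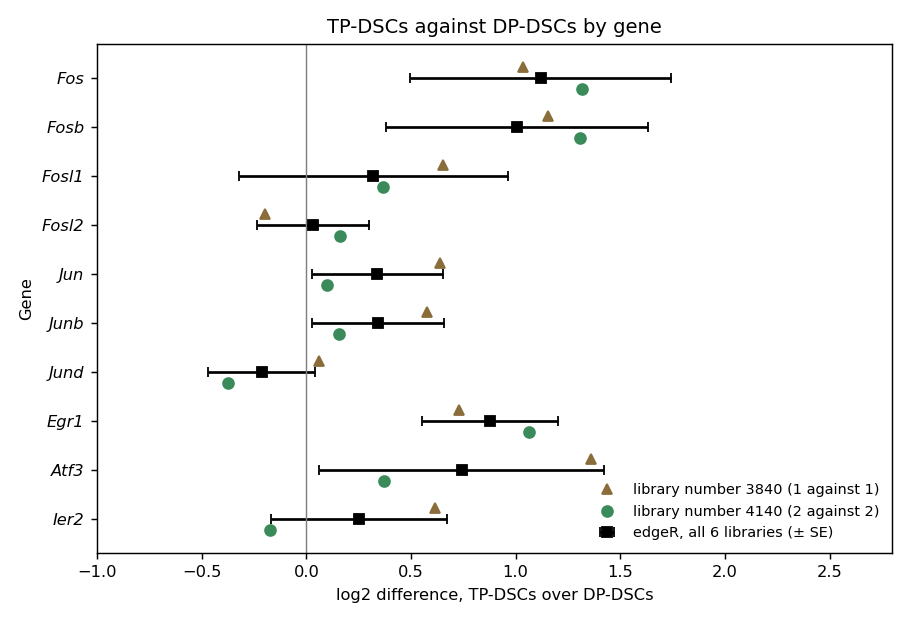
Log2 difference of TP-DSCs over DP-DSCs for each gene; squares with bars are the edgeR log2 fold change ± SE over all 6 libraries, triangles the single pair numbered 3840 and circles the libraries numbered 4140, both as differences of mean log2(CPM + 1). Fos, Fosb and Egr1 lie at 0.73 or above in all 3 measures, while Ier2, Jund and Fosl2 lie on both sides of 0.

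Within TP-DSCs most of the genes shared their highest and their lowest library, and within DP-DSCs most shared the lowest only. In TP-DSCs, replicate 1 was the highest library of its group and replicate 3 the lowest for the same 8 genes, Fos, Fosb, Jun, Junb, Jund, Egr1, Atf3 and Ier2, while Fosl1 and Fosl2 had the opposite order. In DP-DSCs, replicate 3 was the lowest library for 6 of the 10, Fos, Fosb, Jun, Jund, Egr1 and Atf3. The highest DP-DSC library was replicate 1 for 5 genes, Fos, Jun, Junb, Egr1 and Ier2. It was replicate 2 for 4 genes, Fosb, Fosl1, Jund and Atf3, and replicate 3 for Fosl2. The shares of all tested genes with these orders within a group were not computed. Over all 6 libraries TP-DSCs replicate 1 was the highest for 7 of the 10 genes, against 14.1% of all genes tested, and DP-DSCs replicate 3 the lowest for 4 of the 10, against 7.30% of all genes tested. By library, the median deviation of the 10 genes from their own 6-library mean (in log2(CPM + 1)) was 0.66, 0.26 and -0.17 in TP-DSCs replicates 1, 2 and 3, and 0.03, -0.13 and -0.35 in DP-DSCs replicates 1, 2 and 3. The median over all tested genes lay between -0.08 and 0.14.

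**Figure D3:**
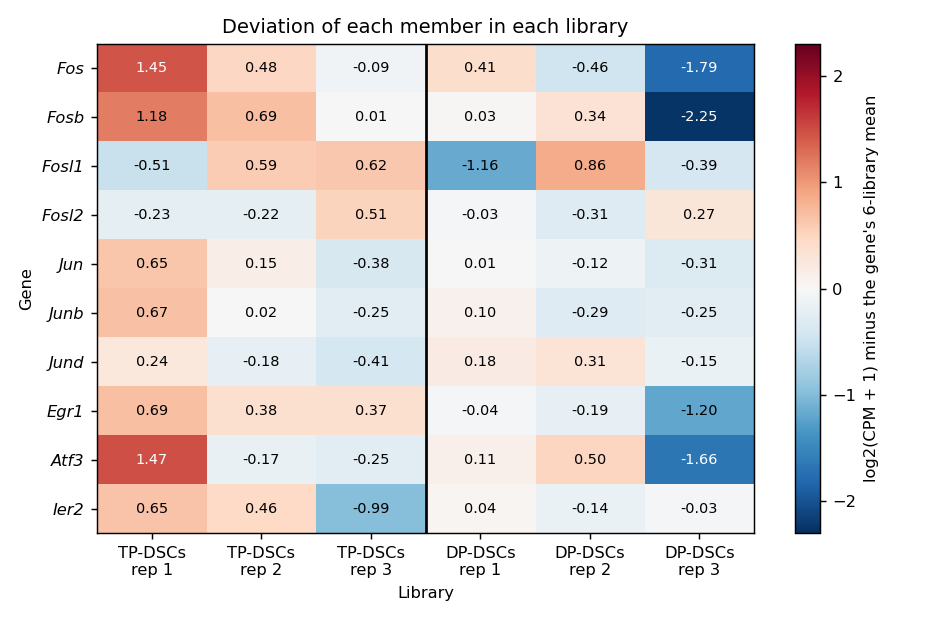
Deviation of each gene (rows) in each library (columns, TP-DSCs left of the line and DP-DSCs right) from its own mean over the 6 libraries, in log2(CPM + 1). TP-DSCs replicate 1 is above 0 for 8 of the 10 genes and DP-DSCs replicate 3 reaches -2.25 for Fosb, while Fosl1 and Fosl2 go their own way.

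Pearson's r over the 6 libraries had a median of 0.376 over the 45 pairs of these genes and of 0.0207 over all pairs of tested genes. It was over 0.5 in 44.4% of the member pairs and in 20.1% of all pairs. All 28 pairs among the 8 genes other than Fosl1 and Fosl2 were above 0, with a median of 0.654, and 15 of the 17 pairs with Fosl1 or Fosl2 were below 0. The points share libraries and their depth, and the 6 values of a gene include both groups. On deviations from the group means the median over the 45 pairs was 0.501, and on deviations from the means of each library number 0.424, against 0.0162 and 0.0178 over all pairs. Without TP-DSCs replicate 1 it was 0.237, against 0.0118 over all pairs. Pearson's r was then over 0.5 in 28.9% of the member pairs and in 23.3% of all pairs.

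No single pair passed after adjustment over the 45. Fos and Egr1 had r = 0.926 (exact permutation p = 0.00694, adjusted over the 45 pairs 0.188) and Spearman's rho = 0.943 (exact p = 0.0167, adjusted 0.289). Fos and Fosb had r = 0.917 (exact p = 0.0125, adjusted 0.188) and rho = 0.829 (exact p = 0.0583, adjusted 0.289). Without TP-DSCs replicate 1 and DP-DSCs replicate 3, the libraries farthest from the median of Fos, r was 0.455 for Fos and Egr1 and 0.224 for Fos and Fosb. The size of both r thus depended on these 2 libraries. Other pairs with Fos went both ways without them, with r at 0.941 for Junb (0.815 with all libraries) and -0.577 for Atf3 (0.870 with all libraries). Jun and Junb had r = 0.943 (exact p = 0.0167, adjusted 0.188) and rho = 0.714 (exact p = 0.136, adjusted 0.322), and r was 0.761 without TP-DSCs replicates 1 and 3. In the opposite direction Fosl2 and Jund had r = -0.786 (exact p = 0.0667, adjusted 0.278) and rho = -0.829 (exact p = 0.0583, adjusted 0.289), and r was -0.105 without replicate 3 of each group. Of the 45 pairs, 0 had an adjusted p under 0.05 and 7 an unadjusted one; the smallest exact p that 6 libraries allow is 0.00278.

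**Figure D4:**
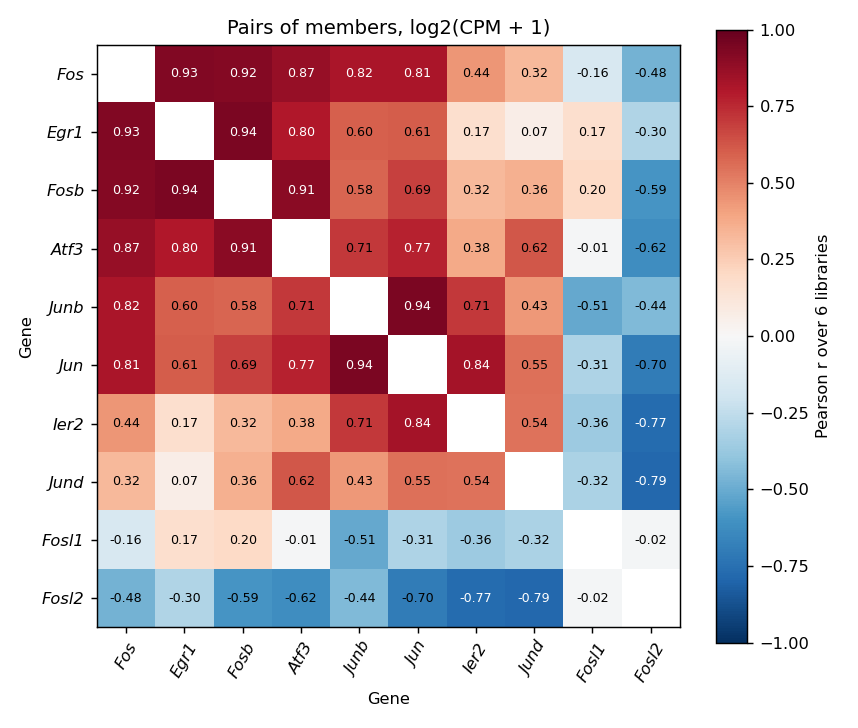
Pearson's r over the 6 libraries for each pair of genes, on log2(CPM + 1), in the same order on both axes. The block from Fos to Jund is positive throughout, from 0.0688 (Jund and Egr1) to 0.943 (Jun and Junb), and Fosl2 is negative with all 9 other genes.

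Fos was the most abundant of the 10 by mean CPM, and its likeness to other genes was ranked over the 9363 other tested genes with a mean of at least 10 CPM. Egr1 stood at place 19, Fosb at 21, Atf3 at 52, Junb at 125 and Jun at 127, all within the top 1.35% of genes. Ier2 had 14.2% of genes above it, Jund 21.0%, Fosl1 56.4% and Fosl2 80.6%. The genes most like Fos were none of the members but Akap1 (an anchor of protein kinase A at mitochondria), Dnajc3 and Edem1 (a chaperone partner and a degradation factor of the endoplasmic reticulum), Cbx7 (a Polycomb protein) and Ccnd2 (cyclin D2). They were followed by Osbpl7, Tsc22d2, Tmed7 (a cargo protein of the secretory route), Apc (a scaffold of the beta-catenin destruction complex) and Ss18l1. Their r with Fos ran from 0.973 (Akap1) to 0.949 (Ss18l1) over 6 libraries, a description from ranking all 9363. Akap1 stood at 122, 113 and 97.2 CPM in TP-DSCs replicates 1, 2 and 3 and at 102, 91.6 and 63.3 CPM in DP-DSCs replicates 1, 2 and 3, a far smaller range than that of Fos.

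Levels were compared between genes per length, as CPM per kb of annotated exon. Fos averaged 276 ± 152 CPM per kb in TP-DSCs and 128 ± 85.5 in DP-DSCs, and Jund 185 ± 43.8 in TP-DSCs and 215 ± 34.3 in DP-DSCs (SD, n = 3 each). By their mean over all libraries Fos (202) and Jund (200.1) led, in either order in 3 of 6 libraries each. They were followed by Jun (129), Junb (90.5), Ier2 (77.1), Egr1 (39.0), Atf3 (35.5), Fosb (22.4), Fosl2 (17.7) and Fosl1 (9.77). Jund was above Jun and Jun above Junb in 6 of 6 libraries. The remaining neighbours kept their order in 4 or 5 of 6 libraries.

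Shares within a family and the ratio between the families need no scaling between libraries, and for the Jun family and the ratio the groups did not overlap. Jund made up 41.0, 43.3 and 46.5% of the Jun family's CPM per kb in TP-DSCs replicates 1, 2 and 3, and 50.4, 56.7 and 50.3% in DP-DSCs replicates 1, 2 and 3. The Jun share was 34.4, 34.6 and 30.3% in TP-DSCs and 28.4, 26.7 and 28.7% in DP-DSCs, and the Junb share 24.6, 22.1 and 23.2% in TP-DSCs and 21.2, 16.6 and 21.0% in DP-DSCs. In none of these shares did the groups overlap, the Jund share being lower and the Jun and Junb shares higher in TP-DSCs. The summed Fos family over the summed Jun family was 0.892, 0.711 and 0.661 in TP-DSCs and 0.578, 0.398 and 0.222 in DP-DSCs, again without overlap.

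Between the libraries numbered 3840 this ratio was higher by 0.314 in TP-DSCs and between those numbered 4140 by 0.376. The Jund share in TP-DSCs minus that in DP-DSCs was -9.45 percentage points for number 3840 and -8.62 for 4140. The exact two-sided permutation test gave p = 0.1 for the ratio and for each of the 3 Jun family shares, the smallest p possible with 3 against 3 libraries, and 0.2 adjusted over the 8 shares and ratios computed. The 3 Jun family shares add up to the whole family in each library. A lower Jund share therefore means a higher sum of the Jun and Junb shares, and their p-values are not independent. Shares and ratios of other gene families were not computed. Inside the Fos family the groups overlapped. Fos made up 80.3 ± 7.32% in TP-DSCs and 71.4 ± 12.4% in DP-DSCs, and Fosl2 6.61 ± 4.58% in TP-DSCs and 13.8 ± 11.2% in DP-DSCs, with 26.8% in DP-DSCs replicate 3 (SD, n = 3 each).

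**Figure D5:**
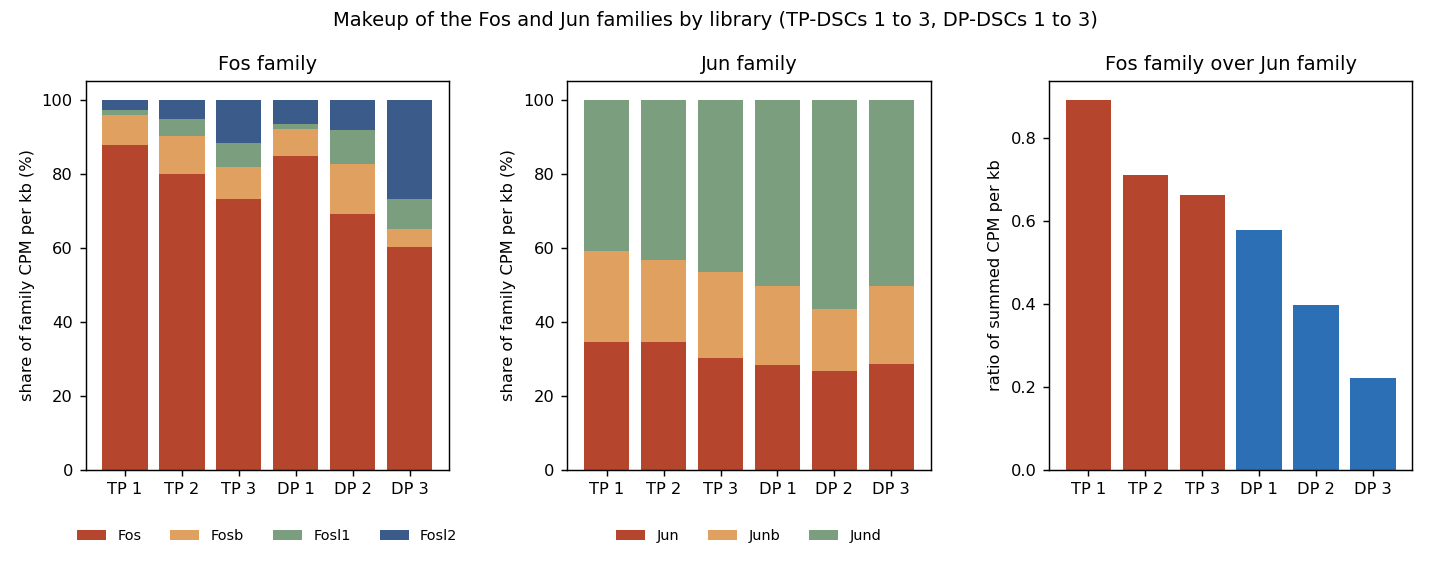
Left and middle, share of each gene in the summed CPM per kb of the Fos and of the Jun family (%) in each library, TP-DSCs 1 to 3 and then DP-DSCs 1 to 3; right, the ratio of the summed Fos family to the summed Jun family. The ratio is 0.661 or more in TP-DSCs and 0.578 or less in DP-DSCs, and Jund makes up 46.5% or less of its family in TP-DSCs and 50.3% or more in DP-DSCs.

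The wider early response was set beside these genes. Of 43 other immediate early genes with a row, 39 were tested. Of these, 28 had a log2 fold change above 0, against 48.2% of all genes tested. The median was 0.14, against -0.02 over all genes tested. In edgeR or DESeq2 0 passed. At an unadjusted p under 0.05 in edgeR there were 2 of the 39, Klf4 and Nfkbiz, against 6.1% of all genes tested. Klf4, an epithelial differentiation factor, averaged 148 ± 14.2 CPM in TP-DSCs and 86.8 ± 13.8 CPM in DP-DSCs, and Nfkbiz, a nuclear regulator of NF-kB, 65.8 ± 0.537 CPM in TP-DSCs and 38.3 ± 7.50 CPM in DP-DSCs (SD, n = 3 each). Both were separated, with log2 fold changes of 0.76 ± 0.19 and 0.77 ± 0.25 (edgeR adjusted p = 0.136 and 0.387). Klf4 was called when every gene with a read was entered in DESeq2. Gadd45b, a stress sensor, was lower without overlap, at 74.2 ± 8.23 CPM in TP-DSCs and 97.8 ± 2.50 CPM in DP-DSCs. Cyr61, a matricellular protein, stood at 175 ± 69.3 CPM in TP-DSCs and 108 ± 46.7 CPM in DP-DSCs. TP-DSCs replicate 1 was the highest library for 9 of the 39 genes (23.1%), against 14.1% of all genes tested. DP-DSCs replicate 3 was the lowest for 13 (33.3%), against 7.30% of all genes tested.

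Heat shock genes, which dissociation of tissue is also known to induce, had summed levels in another order of libraries. The summed level of 13 of them was 9310, 9679 and 10469 CPM in TP-DSCs replicates 1, 2 and 3, and 9183, 9832 and 10962 CPM in DP-DSCs replicates 1, 2 and 3. By this sum, in which abundant genes weigh most, the replicate 1 libraries were the lowest of their groups and the replicate 3 libraries the highest, while the summed level of the 10 AP-1 and early genes was 3413, 2246 and 1785 CPM in TP-DSCs and 2128, 1862 and 1336 CPM in DP-DSCs, in the same order. Of the 13, 6 had a log2 fold change above 0 and the median was -0.06. Hsp90aa1, a cytosolic chaperone, averaged 987 ± 161 CPM in TP-DSCs and 683 ± 95.4 CPM in DP-DSCs, a log2 fold change of 0.52 ± 0.19 without overlap (edgeR adjusted p = 0.630); it too was called in DESeq2 when every gene with a read was entered. Hspd1, Hspe1 and Dnajb4 came next by p, with log2 fold changes of 0.28, 0.14 and 0.47. Single genes departed from the order of the sum: Hsp90aa1, Hspd1 and Hspe1 were highest in replicate 2 of each group. TP-DSCs replicate 1 was the highest library for 1 of the 13 genes (7.69%), against 14.1% of all genes tested. DP-DSCs replicate 3 was the lowest for 1 (7.69%), against 7.30% of all genes tested. The 13 include Hspa1a, Hspa1b, Hspb1, Dnajb1 and Hsph1, whose single values are not given here. The sum therefore does not show the order of libraries for these genes. The part of cell handling in any of these values was not tested.

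Of 25 kinases and factors upstream of AP-1 with a row, 24 were tested, 14 were above 0, the median was 0.03 and 0 passed, with 0 at an unadjusted p under 0.05 in edgeR and 0 in DESeq2. Their summed level ranged from 1734 to 1822 CPM in TP-DSCs and from 1724 to 1829 CPM in DP-DSCs. The smallest unadjusted p in edgeR, 0.126 to 0.290 (adjusted 0.999 each), belonged to Map2k4 (76.3 ± 18.2 CPM in TP-DSCs and 57.5 ± 6.37 CPM in DP-DSCs), Mapk9 (77.0 ± 1.80 and 61.3 ± 5.42 CPM in TP-DSCs and DP-DSCs), Map2k7 and Creb1. Mapk9, which encodes a JNK, was separated, with a log2 fold change of 0.31 ± 0.19.

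Genes known as AP-1 targets in epithelium gave no common direction. Of 27, 21 were tested, 13 were above 0, the median was 0.12, and 0 passed in edgeR or DESeq2 (0 at an unadjusted p under 0.05 in edgeR). Hbegf, a ligand of the EGF receptor, stood at 104, 54.9 and 56.2 CPM in TP-DSCs replicates 1, 2 and 3 and at 45.0, 48.5 and 48.3 CPM in DP-DSCs. It was the only 1 of the 21 that was separated with TP-DSCs higher, as were 3.87% of all genes tested. Like Fos it was highest in TP-DSCs replicate 1. That library was the highest for 4 of the 21 genes (19.0%), against 14.1% of all genes tested. Without it the log2 fold change of Hbegf was 0.15, against 0.61 with it. The membrane protease gene Mmp14 averaged 78.2 ± 15.1 CPM in TP-DSCs and 106 ± 43.1 CPM in DP-DSCs, the haem oxygenase Hmox1 40.5 ± 26.9 CPM in TP-DSCs and 71.2 ± 28.6 CPM in DP-DSCs, and the angiogenic factor Vegfa 409 ± 29.8 CPM in TP-DSCs and 320.3 ± 97.3 CPM in DP-DSCs (SD, n = 3 each). The groups overlapped for these 3 genes. For Hmox1 the overlap came from TP-DSCs replicate 1, at 71.4 CPM against 27.9 and 22.1 CPM in TP-DSCs replicates 2 and 3, and 100.4, 69.7 and 43.4 CPM in DP-DSCs replicates 1, 2 and 3. Its log2 fold change was -0.79 over all libraries and -1.60 without TP-DSCs replicate 1 (edgeR unadjusted p = 0.00914, adjusted 0.176).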

How the data were processed

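The labels' protocols give polyadenylated RNA and a stranded kit for the 3 TP-DSC and 3 DP-DSC samples. The authors deposited 1 raw read count per gene symbol and library, with no normalization visible in the values. STAR 2.7.3a, Partek, DESeq2 3.5 and build mm10 are named, per the submitters' processing notes, without their roles; the strand setting is not given in the sources used here. Rows for reads in no gene and for ambiguous reads were left out of totals and tests. The genes and lists were chosen with earlier results of these data known.

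CPM is the count over the sum of all gene rows. Groups were compared with edgeR 4.0.16 in R 4.3.3 (filterByExpr with a minimum count of 10 and minimum total of 15, TMM factors, quasi-likelihood F test, group as the only term, Benjamini-Hochberg over all 11925 genes at 0.05). The SE is the log2 fold change over the square root of F. Correlations used log2(CPM + 1). DESeq2 1.42.0 and limma-voom 3.58.1 were alternatives, as were other scalings and filters, the library number as a block, the libraries numbered 4140 alone and leaving out each library; DESeq2 on every gene with a read was added after seeing the data. Lengths and coordinates came from GENCODE M21, promoters from RefSeq (GRCm38.p6).

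Besides the 10 genes, the text names up to 4 genes per list by the smallest edgeR p and the 10 genes most like Fos, leaving out clone names. Replicate numbers follow the order of deposit. Replicates of a group differed by far more than read-counting noise (chi-square of at least 112.2 per degree of freedom), so each counted as 1 sample. The labels call the samples independent without naming separate cultures, so p-values measure only how these samples vary, part of which may be technical. On simulated counts for the 11925 genes of this comparison, edgeR called 1.67% of genes changed 2-fold and 34.3% of genes changed 4-fold.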

Additional observations from a re-analysis of the deposited data

How the results depend on the processing

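None of the 10 genes was called under any of the 17 alternatives run, and the median of their log2 fold changes ranged from 0.028 (without TP-DSCs replicate 1) to 0.62 (without DP-DSCs replicate 2). Fos, Fosb and Egr1 were above 0 and Jund below 0 under all 17. In the libraries numbered 4140 alone Atf3 was at -0.029 and Ier2 at -0.067. Leaving out 1 library at a time gave ranges of -0.062 to 1.03 for Fosl1, -0.22 to 0.19 for Fosl2, -0.045 to 0.58 for Jun, -0.066 to 0.55 for Junb, -0.19 to 1.10 for Atf3 and -0.14 to 0.63 for Ier2, and for genes of the lists -0.18 to 0.74 for Dnajb4, -0.46 to 0.061 for Spred2 and -1.09 to 0.16 for Dusp4. Fos ranged from 0.48 to 1.78 and its adjusted p over all alternatives from 0.329 to 0.99999; for Egr1 it ranged from 0.266 to 0.99999. Over all genes edgeR called 0 (728 at an unadjusted p under 0.05), DESeq2 93, and DESeq2 on every gene with a read 267 of 15176. On that setting, which called 1.76% of all genes, 3 genes of the lists were called, and none with edgeR. They were Klf4, Bach2 and Hsp90aa1, from lists of which 39, 18 and 13 genes were tested in edgeR. The lists of upstream factors, AP-1 targets and negative regulators, with 24, 21 and 8 genes tested, gave none. The count of genes entering DESeq2 was the only change from the filtered run. The median r over member pairs was 0.501 on deviations from the group means and 0.237 to 0.501 leaving out 1 library, the lowest without TP-DSCs replicate 1 and the highest without TP-DSCs replicate 3; the cause was not tested. The order per length was the same with the longest transcript as the length. No paired analysis was possible because replicates were numbered in deposit order, which pairs nothing. With the library number as a block in edgeR 0 of the 10 genes were called. At an unadjusted p under 0.05 there were 2, Fos and Egr1, beside 843 of the 11925 genes tested. The lowest count behind a value of the 10 genes was 237; the effect of depth was not tested.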

Other observations

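Of 22 other bZIP proteins with a row, 18 were tested, 5 had a log2 fold change above 0 and 13 below, against 48.2% of all genes tested above 0, the median was -0.08 against -0.02 over all genes, and 0 passed in edgeR or in DESeq2 on the same genes (1 at an unadjusted p under 0.05 in edgeR, Bach2). Bach2, a repressor that binds AP-1-like sites, was without a read in all TP-DSC libraries, where 3 counts over the group would be 0.0411 CPM (counting error only), and averaged 2.28 ± 1.07 CPM in DP-DSCs (SD, n = 3). The TP-DSC libraries also held fewer genes with reads, and the part of that in the Bach2 value was not tested. DESeq2 called Bach2 when every gene with a read was entered. Bach1 was lower without overlap, at 21.5 ± 8.97 CPM in TP-DSCs and 32.1 ± 2.50 CPM in DP-DSCs. Ddit3, the CHOP factor of the endoplasmic reticulum stress response, averaged 25.7 ± 14.1 CPM in TP-DSCs and 12.5 ± 4.58 CPM in DP-DSCs, and Atf7 10.5 ± 8.03 CPM in TP-DSCs and 20.7 ± 6.35 CPM in DP-DSCs, both with overlap.

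The negative regulators of MAP kinase signalling, 8 genes of the Dusp, Spry and Spred families, had log2 fold changes above 0 in 5 and a median of 0.10, with 0 past the threshold in edgeR or DESeq2 and 0 at an unadjusted p under 0.05 in edgeR. Spry1 averaged 60.1 ± 18.0 CPM in TP-DSCs and 40.4 ± 5.85 CPM in DP-DSCs, Spry4 5.74 ± 6.69 CPM in TP-DSCs and 9.05 ± 1.10 CPM in DP-DSCs, and Spred2 37.6 ± 11.9 CPM in TP-DSCs and 43.1 ± 3.57 CPM in DP-DSCs. Dusp4, a nuclear phosphatase that removes the activating phosphates of ERK, stood at 179, 25.5 and 103 CPM in TP-DSCs replicates 1, 2 and 3 and at 187, 85.0 and 111 CPM in DP-DSCs. Its replicate 1 library was the highest in each group, as for Fos. The other named genes differed from this. Spry1 was lowest in replicate 1 of each group (39.6 CPM in TP-DSCs and 34.9 CPM in DP-DSCs). Spry4 was highest in replicate 3 of each group (13.2 CPM in TP-DSCs and 10.2 CPM in DP-DSCs). Spred2 was highest in TP-DSCs replicate 1 (46.3 CPM) and in DP-DSCs replicate 2 (46.2 CPM).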
